A study of Rattus norvegicus with 16 samples.

Results

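The genes of 8 acetylcholine receptor proteins and of acetylcholinesterase were followed in the rat hippocampus and frontal cortex at 2 ages. They are the muscarinic receptor genes Chrm1, Chrm2, Chrm3 and Chrm4, the nicotinic subunit genes Chrna4, Chrna5, Chrna7 and Chrnb2, and Ache. They were chosen by symbol, as every probe on the array that carries one of these 9 names. This gave 20 probes of 45904 with a listed gene, and 9 genes of 16974. Chrm1 has 1 probe, Chrna7 has 3, Chrm2 has 4, and each of the other genes has 2.

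One-colour Agilent arrays, 1 per sample, measured messenger RNA of 2 brain regions of male LOU/C/Jall rats, an inbred strain. The 16 arrays form 4 groups of 4: young hippocampus, old hippocampus, young frontal cortex and old frontal cortex. The sample labels put the young rats at 5 months and the series text at 3, while both put the old rats at 26 months. No treatment is labelled and no second strain was measured, so age and region are the only contrasts, and both hold within this strain and sex. Arrays are named here by the letter code of their title: young arrays carry AA, AB, Y or Z and old arrays AF, AG, AH or AI, each code once per region. The labels do not say that 1 code is 1 animal, so p-values refer to the spread between arrays. The tissue was dissected whole, so each signal averages over all its cells, and fewer cells of a type cannot be told apart from less RNA per cell.

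Acetylcholine reaches hippocampus and cortex mostly along axons of the basal forebrain. The messenger RNA of the transmitter's synthetic enzyme, and of receptors on these axons, is thus made largely outside the dissected tissue. That of receptors on the local target cells is made within it. Muscarinic receptors are single proteins that act through G proteins: Chrm1 and Chrm3 couple to Gq and phospholipase C, Chrm2 and Chrm4 to Gi and Go, which lower cyclic AMP. Nicotinic receptors are pentameric cation channels: Chrna4 and Chrnb2 build the main high-affinity type of the brain, Chrna5 joins them as an accessory subunit, and Chrna7 forms receptors of its own kind. Ache ends the signal by splitting acetylcholine in the synaptic cleft.

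The results below turn on 4 genes whose signal differed between the regions, and their promoters are printed first so that the genes can be placed. The windows run from 250 bases before to 50 bases after a listed start of the gene. They come from RefSeq on the GRCr8 assembly, where all 9 genes have one. For Chrna4 and Ache this start lies inside the gene as listed. On the minus strand the listed gene begins at base 188535558 for Chrna4 and 25050608 for Ache. Chrna4 lies on the minus strand of chromosome 3 (window chr3:188534477-188534776) and Chrm4 on the plus strand of the same chromosome (chr3:98348830-98349129). Chrna5 lies on the plus strand of chromosome 8 (chr8:64265629-64265928) and Ache on the minus strand of chromosome 12 (chr12:25050361-25050660). Each is given 5′ to 3′ on the gene's strand, and capitals mark matches to the GC box, the core recognised by Sp1 and related factors.
Chrna4: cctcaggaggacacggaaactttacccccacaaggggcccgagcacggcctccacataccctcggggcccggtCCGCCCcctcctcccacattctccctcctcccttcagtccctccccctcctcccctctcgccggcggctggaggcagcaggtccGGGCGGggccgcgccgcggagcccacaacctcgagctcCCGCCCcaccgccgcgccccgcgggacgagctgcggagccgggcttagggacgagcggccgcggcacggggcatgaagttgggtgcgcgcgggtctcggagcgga
Chrm4: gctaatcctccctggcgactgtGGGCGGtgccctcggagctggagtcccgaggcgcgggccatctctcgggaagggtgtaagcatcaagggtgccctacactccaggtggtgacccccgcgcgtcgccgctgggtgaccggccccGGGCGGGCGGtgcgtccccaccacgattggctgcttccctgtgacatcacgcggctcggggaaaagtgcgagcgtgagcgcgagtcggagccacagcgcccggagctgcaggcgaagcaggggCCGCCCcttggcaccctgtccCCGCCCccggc
Chrna5: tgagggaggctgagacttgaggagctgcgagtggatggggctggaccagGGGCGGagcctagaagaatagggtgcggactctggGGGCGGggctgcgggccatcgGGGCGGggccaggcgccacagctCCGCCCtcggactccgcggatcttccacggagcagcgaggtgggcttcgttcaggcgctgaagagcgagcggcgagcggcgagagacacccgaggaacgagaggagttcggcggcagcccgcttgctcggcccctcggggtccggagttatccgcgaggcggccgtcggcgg
Ache: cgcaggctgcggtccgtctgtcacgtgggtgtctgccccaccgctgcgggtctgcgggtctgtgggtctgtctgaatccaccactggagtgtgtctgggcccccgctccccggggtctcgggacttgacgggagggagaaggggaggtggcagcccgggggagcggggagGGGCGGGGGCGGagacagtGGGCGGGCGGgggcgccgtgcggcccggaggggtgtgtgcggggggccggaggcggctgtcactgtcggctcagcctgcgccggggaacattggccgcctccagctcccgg
The GC box was searched as GGGCGG on both strands. Matches numbered 3 in Chrna4, 5 in Chrm4, 4 in Chrna5 and 4 in Ache, with 1 overlapping pair in Chrm4 and 1 in Ache. Among the members not shown, Chrm3 and Chrna7 held 2 each, Chrm2 and Chrnb2 held 1 each and Chrm1 held 0. Of all 33469 promoter windows of this length, 33.1% hold at least 1. G and C made up 74.7% of the Chrna4 window, 72.0% of Chrm4 and 71.3% of Chrna5, against a median of 51.7% over all windows. A TATA box (TATAAA, both strands) was found in 0 of these 4 windows and in 14.2% of all. A canonical E-box (CACGTG) was found in Ache alone of the 4, in Chrna7 among the members not shown, and in 6.4% of all. A match describes the letters and is no evidence of a bound factor, and the data hold no measure of binding.

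Signals are log2 values as deposited, after a small shift of each array to a common 75th percentile, and each gene is given by its brightest probe. A probe's signal depends on its sequence, so levels are compared between arrays for 1 probe and never between genes. For orientation, 308 negative control spots averaged 4.99, and the highest of their means was 5.51. A gene was tested when at least 1 group mean lay above 6.49, which is the 40th percentile over all probe means. This left 10056 genes, among them 7 of the 9. Chrm2 and Chrnb2 stayed under this minimum in every group. Chrm1 passed through young hippocampus alone (mean 6.52) and Chrna5 through old frontal cortex alone (mean 6.50), so these genes sit at the edge of what was tested. Chrna7 passed in every group but young frontal cortex (mean 6.35).

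The dissections were checked with marker genes of the tissues and their neighbours. The 9 tested hippocampus markers averaged 10.1 to 10.4 on the 8 hippocampus arrays and 8.45 to 8.75 on the 8 frontal cortex arrays, with no overlap. Choroid plexus markers (11 tested, such as Ttr) stood 2.30 to 3.54 log2 above their means on hippocampus arrays Y, AB, AH and AI, and between -0.82 and 0.26 on the other 4 hippocampus arrays. Striatal markers (9 tested, such as Drd2 and Adora2a) stood 1.25, 1.36 and 2.07 above their means on frontal cortex arrays AA, AB and AG, and between -0.29 and 0.58 on the other 5. Thalamic and habenular markers (4 tested) stood 1.16 and 1.35 above their means on hippocampus arrays Y and AH. Meningeal and mural cell markers (13 tested) stood 1.15 above their means on hippocampus array Y. On frontal cortex arrays Y and Z they stood 0.945 and 1.24 above. Erythrocyte markers (3 tested) stood 1.27 above on hippocampus array AF and 1.75 on frontal cortex array AF. In frontal cortex the median old minus young difference was -0.76 log2 for meningeal and mural markers and 0.66 for the 11 tested oligodendrocyte markers. Of the cholinergic neuron markers, Slc18a3 alone of 7 on the array passed the minimum, and the group means of Chat, the synthetic enzyme, lay between 5.31 and 5.46, below the highest negative control. The part of the adjoining tissues and other cell types in the results was not tested beyond the values given without the arrays high in choroid plexus or striatal markers.

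**Figure D1:**
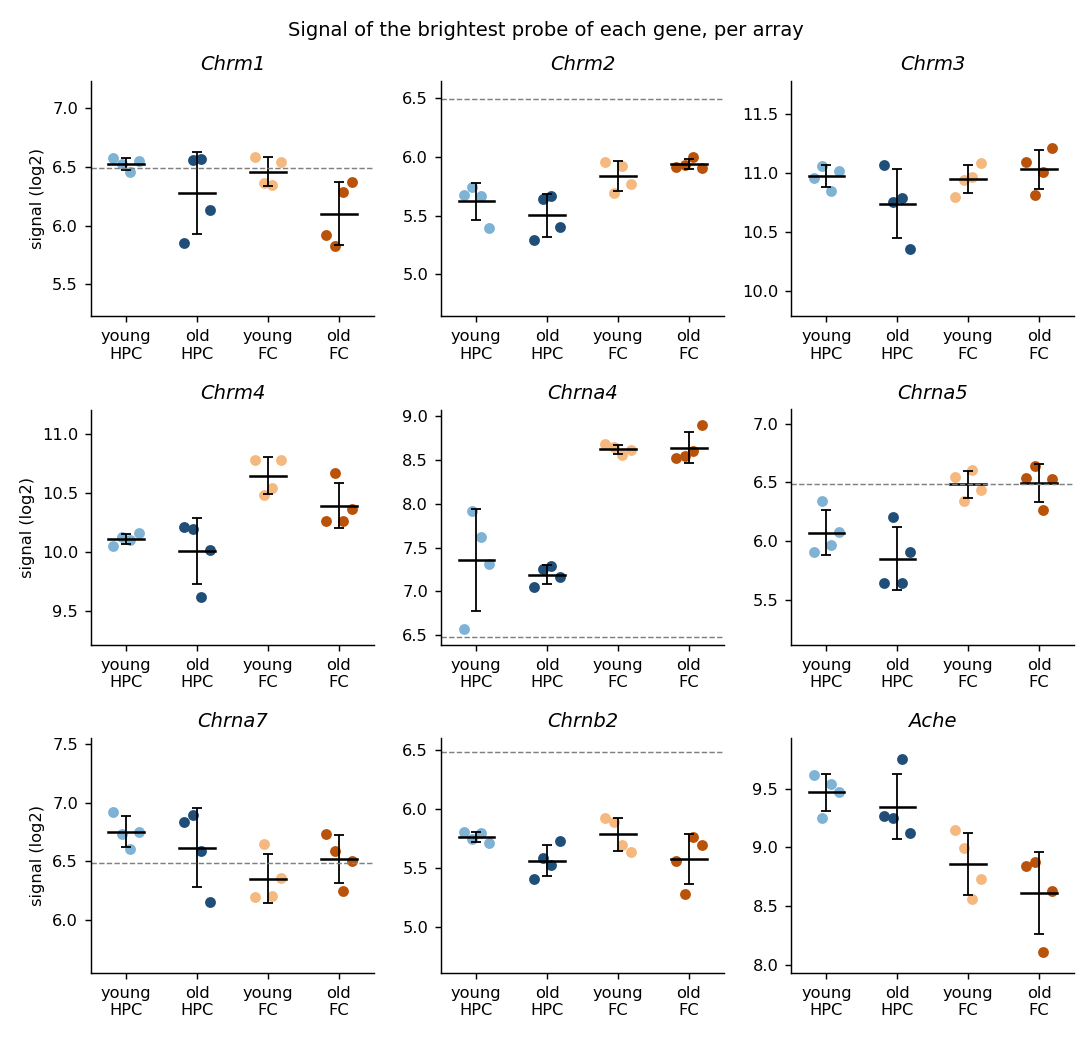
Signal of the brightest probe of each of the 9 genes (log2) in young and old hippocampus (HPC) and frontal cortex (FC). Points are arrays (4 per group), horizontal lines are group means, error bars are SD, and the dashed grey line is the intensity minimum of 6.49; each panel spans its own range of at least 2 log2. Chrna4 separates the regions on every array, Chrm4 likewise, and old and young arrays overlap for all 9 genes in both regions.

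The first comparison asked whether the genes differ between old and young rats, in each region. None of the 7 tested genes passed the test in hippocampus, and none in frontal cortex (limma, two-sided, Benjamini-Hochberg over 10056 genes, adjusted p under 0.05). Across all tested genes 0.0398% passed in hippocampus and 0.965% in frontal cortex. At an unadjusted limma p under 0.05 the count was 0 of 7 in hippocampus and 1 of 7 in frontal cortex, where 6.77% and 22.2% of all tested genes came under it. Old and young arrays overlapped for each of the 7 genes in both regions, where 4.56% of all tested genes did not overlap in hippocampus and 12.8% in frontal cortex. In hippocampus all 7 differences were negative, with a median of -0.17 log2 against 0.01 over all tested genes, of which 52.9% were positive. Chrm1 entered these 7 through its high young hippocampus mean, so its sign there is favoured by the minimum. With no minimum set, all 9 genes were negative. Without the hippocampus arrays high in choroid plexus markers, Chrna4 (0.21), Chrm4 (0.10) and Chrna7 (0.03) turned positive. Chrm1, Chrm3, Chrna5 and Ache stayed negative. Pan-neuronal markers were negative in hippocampus for 7 of 9 tested genes, with a median of -0.135. In frontal cortex 4 of the 7 tested members were positive and 3 negative, with a median of 0.01 against 0.00 over all tested genes.

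Among the muscarinic receptors, Chrm1, the main postsynaptic type of forebrain pyramidal cells, came nearest to a difference with age. In frontal cortex its signal was 6.58, 6.36, 6.34 and 6.54 on young arrays AA, AB, Y and Z, and 5.92, 5.83, 6.29 and 6.37 on old arrays AF, AG, AH and AI. Old arrays AF and AG lie below every young array, while AI lies above 2 of them. The difference was -0.36 ± 0.15 log2 (SE, 95% interval -0.68 to -0.04), with a limma adjusted p of 0.183, and this is the 1 member with an unadjusted p under 0.05. In hippocampus the young arrays lay between 6.46 and 6.58, and the old ones read 5.85, 6.56, 6.56 and 6.13. AF was the lowest hippocampus array, while AG was the lowest in frontal cortex. The old hippocampus group was spread more widely than the young one, with an SD of 0.35 against 0.05. The hippocampal difference was -0.25 ± 0.15 log2 (limma, adjusted p = 0.790).

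Chrm3, the second Gq-coupled receptor of the set, read 10.96, 11.06, 10.85 and 11.02 on young hippocampus arrays AA, AB, Y and Z, and 11.07, 10.75, 10.78 and 10.35 on old arrays AF, AG, AH and AI. Old arrays thus held both the highest and the lowest value. The difference was -0.23 ± 0.13 log2 (limma, adjusted p = 0.766), and it was -0.10 without array AI. Array AI also had the highest choroid plexus mean and the lowest pan-neuronal mean of the hippocampus arrays, the latter 0.29 log2 below its genes' means. In frontal cortex the Chrm3 difference was 0.08 ± 0.13.

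Chrm4, the Gi-coupled receptor found on striatal and cortical neurons and on cholinergic terminals, read 10.05 to 10.16 in young hippocampus and 10.21, 10.19, 9.62 and 10.01 on old arrays AF, AG, AH and AI. AH stood apart below the rest, and without it the difference turned from -0.10 to 0.03 log2. In frontal cortex Chrm4 read 10.78, 10.48, 10.54 and 10.78 on young arrays AA, AB, Y and Z and 10.27, 10.67, 10.27 and 10.36 on old arrays AF, AG, AH and AI. Old arrays AF, AH and AI lay below every young array, and AG, the array with the highest striatal mean, did not. The frontal cortex difference was -0.26 ± 0.13 log2 (95% interval -0.53 to 0.01, limma, adjusted p = 0.248), and without the 3 arrays high in striatal markers it was -0.36 (adjusted p = 0.640).

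Chrm2, the Gi-coupled autoreceptor of cholinergic terminals, was under the minimum and was tested only when no minimum was set. Its age differences were then -0.12 ± 0.10 log2 in hippocampus and 0.10 ± 0.10 in frontal cortex, with limma adjusted p-values of 0.894 and 0.688 over 16974 genes.

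The nicotinic subunits showed no age difference that passed the test either. Chrna4 varied most within a group: young hippocampus arrays AA, AB, Y and Z read 6.57, 7.92, 7.62 and 7.31, and old arrays AF, AG, AH and AI read 7.05, 7.26, 7.29 and 7.17. The young arrays bracket all the old ones. The hippocampal difference was -0.17 ± 0.20 log2 (95% interval -0.58 to 0.25), and in frontal cortex it was 0.02 ± 0.20. The 2 highest young values came from arrays AB and Y, which were also high in choroid plexus markers. Old arrays AH and AI were high in these markers too, but not in Chrna4. Without the 4 arrays of that kind the difference was 0.21 (limma, adjusted p = 0.806). Over the 8 hippocampus arrays Chrna4 correlated at r = 0.590 with the choroid plexus list. With the meningeal and mural list and with the striatal list r was 0.659, as a description.

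For Chrna5 the differences were -0.22 ± 0.13 log2 in hippocampus and 0.01 ± 0.13 in frontal cortex, with limma adjusted p-values of 0.788 and 0.963. For Chrna7 they were -0.14 ± 0.15 in hippocampus and 0.17 ± 0.15 in frontal cortex, with adjusted p of 0.893 and 0.550. Chrna7 read 6.92, 6.73, 6.61 and 6.75 on young hippocampus arrays AA, AB, Y and Z and 6.84, 6.89, 6.59 and 6.15 on old arrays AF, AG, AH and AI. Array AI was the lowest again, and without it the hippocampal difference was 0.02. Chrnb2 was under the minimum, and with no minimum its differences were -0.20 ± 0.10 in hippocampus and -0.21 ± 0.10 in frontal cortex (adjusted p of 0.878 and 0.349).

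Ache read 9.62, 9.25, 9.54 and 9.47 on young hippocampus arrays AA, AB, Y and Z, and 9.27, 9.25, 9.75 and 9.12 on old arrays AF, AG, AH and AI. The highest value came from an old array, AH, and the groups overlap. The difference was -0.12 ± 0.18 log2 (95% interval -0.49 to 0.25, limma, adjusted p = 0.908). In frontal cortex young arrays AA, AB, Y and Z read 9.152, 8.995, 8.560 and 8.730, and old arrays AF, AG, AH and AI read 8.84, 8.87, 8.11 and 8.63. The frontal cortex groups also overlap, with a difference of -0.25 ± 0.18 log2 (adjusted p = 0.426).

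**Figure D2:**
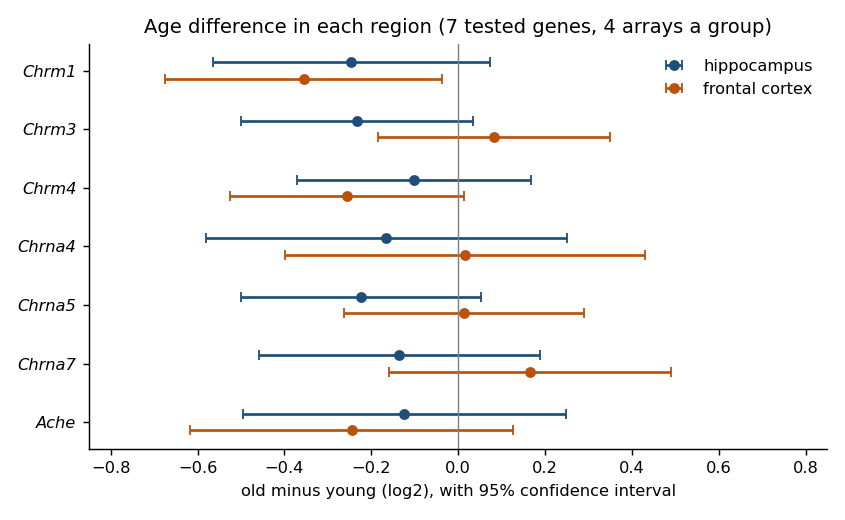
Old minus young difference (log2) of the 7 tested genes in hippocampus (blue) and frontal cortex (orange), with 95% confidence intervals from the limma fit (4 arrays per group). Chrm1 in frontal cortex is the one interval that leaves out 0 (-0.68 to -0.04), and its adjusted p is 0.183.

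The second probes of the genes were read for the same comparison. Of the 20 probes, 11 passed the minimum, and 0 of these 11 passed the age test in either region, where 0.0418% of 28735 probes passed in hippocampus and 0.592% in frontal cortex. In hippocampus 2 of the 11 had no overlap between old and young arrays, both lower in old, where 4.79% of all probes had none. They are the second probe of Ache, at 9.14 to 9.37 in young and 8.85 to 9.09 in old, and the second probe of Chrm4, at 10.01 to 10.14 in young and 9.55 to 10.00 in old. Their differences were -0.27 log2 for Ache and -0.25 for Chrm4, with limma adjusted p-values of 0.675 and 0.656. The brightest probes of both genes overlapped there, and for Ache the probes part on array AH, which was the highest old array on the first (9.75) and the lowest on the second (8.85). Among the probes under the minimum, the second of Chrna5 (-0.375 log2) and the third of Chrm2 (-0.317) were also lower in old hippocampus without overlap. These probes were not tested, and the share without overlap among all probes under the minimum was not computed. Over the 16 arrays the 2 probes of Ache correlated at r = 0.897, those of Chrm4 at 0.947 and those of Chrna4 at 0.977, as a description.

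The next comparison asked whether the age effect differs between the regions. None of the 7 tested genes passed the interaction test, and 0% of the 10056 genes did, nor did any probe (0% of 28735). At an unadjusted limma p under 0.05 the interaction count was 0 of the 7, where 2.65% of all tested genes came under it. The largest sizes were -0.31 ± 0.18 log2 for Chrm3 (95% interval -0.69 to 0.06) and -0.30 ± 0.22 for Chrna7 (-0.76 to 0.16), both with an adjusted p of 0.999. The different signs of these genes in the regions are thus not shown to be a difference.

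The third comparison set hippocampus against frontal cortex over both ages. Of the 7 tested genes 4 passed: Chrna4, Chrna5 and Chrm4 were lower in hippocampus and Ache was higher (limma, two-sided, Benjamini-Hochberg, adjusted p under 0.05). Across all tested genes 28.8% passed, 14.4% higher in hippocampus and 14.4% lower, so a regional difference is common on these arrays. The regions did not overlap for 2 of the 7 genes, Chrna4 and Chrm4, against 8.73% of all tested genes. The same 4 genes passed without the 3 frontal cortex arrays high in striatal markers. Without the 4 hippocampus arrays high in choroid plexus markers, they passed together with Chrna7.

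Chrna4 had the largest regional difference of the set. Its signal in frontal cortex was 8.67, 8.64, 8.55 and 8.61 on young arrays AA, AB, Y and Z, and 8.52, 8.54, 8.59 and 8.89 on old arrays AF, AG, AH and AI, against 6.57 to 7.92 on the 8 hippocampus arrays given above. Each frontal cortex array stood above each hippocampus array. The difference was -1.35 ± 0.14 log2, or 2.56-fold lower in hippocampus (95% interval -1.65 to -1.06, limma, adjusted p = 1.30e-06), and it exceeded in size that of 98.5% of the tested genes. The group means ran from old frontal cortex (8.63) and young frontal cortex (8.62) to young hippocampus (7.36) and old hippocampus (7.19), and neighbours within a region lie within their spread. Taken code by code, hippocampus minus frontal cortex ran from -2.10 to -0.72 in the 4 young codes, so the gap itself varied. Without the hippocampus arrays high in choroid plexus markers the difference was -1.58.

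Chrna5 was lower in hippocampus by the same test, but it had entered the test only through old frontal cortex, a group where it is high, so its place among the 4 is favoured by the minimum. Hippocampus arrays read 5.91, 6.34, 5.97 and 6.08 for young AA, AB, Y and Z and 5.64, 6.20, 5.64 and 5.91 for old AF, AG, AH and AI. Frontal cortex arrays read 6.549, 6.340, 6.604 and 6.439 for young AA, AB, Y and Z and 6.54, 6.64, 6.27 and 6.53 for old AF, AG, AH and AI. Hippocampus array AB reaches above frontal cortex array AH, and the other hippocampus arrays lie below all of frontal cortex. The difference was -0.53 ± 0.09 log2, or 1.44-fold lower in hippocampus (limma, adjusted p = 0.000344, and 0.000609 over 16974 genes with no minimum set). On GRCr8, Chrna5 shares a stretch of 67441 bases on chromosome 8 with Chrna3 and Chrnb4, subunits of ganglionic and habenular receptors, with 0 other protein-coding genes between them. Chrnb4 passed the minimum and differed between regions by 0.11 ± 0.08 (adjusted p = 0.377), and the group means of Chrna3 lay under the minimum, at 5.42 to 5.56.

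Chrm4 was lower in hippocampus, at 9.62 to 10.21 against 10.27 to 10.78 in frontal cortex, with no overlap. The difference was -0.46 ± 0.09 log2, or 1.38-fold lower in hippocampus (95% interval -0.65 to -0.27, limma, adjusted p = 0.000961). Chrm4 is known for its high level in striatal neurons. The 3 frontal cortex arrays high in striatal markers read 10.48 to 10.78 for it and the other 5 read 10.27 to 10.78. Without the 3 arrays high in striatal markers the difference was -0.42 (adjusted p = 0.00611), and without the 4 high in choroid plexus markers it was -0.37 (adjusted p = 0.0140). The mean order was young frontal cortex (10.65), old frontal cortex (10.39), young hippocampus (10.11) and old hippocampus (10.01), and neighbours of different age within a region overlap.

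Ache was the one gene of the set that was higher in hippocampus by the test. Its 8 hippocampus arrays lay between 9.12 and 9.75 and its 8 frontal cortex arrays between 8.11 and 9.15, so that frontal cortex array AA lies just above hippocampus array AI. The difference was 0.67 ± 0.12 log2, or 1.59-fold (95% interval 0.41 to 0.93, limma, adjusted p = 0.000563). Within frontal cortex the 3 arrays high in striatal markers read 8.87 to 9.15 for Ache and the other 5 read 8.11 to 8.84. Without those 3 arrays the region difference was 0.82 (limma, adjusted p = 0.000437). Over the 8 frontal cortex arrays Ache correlated at r = 0.504 with the striatal list and at 0.869 with a list of interneuron markers, as a description. The latter is the highest r of Ache with any marker list there, and over the 8 hippocampus arrays it was -0.206. On hippocampus arrays the 4 high in choroid plexus markers averaged 9.42 and the other 4 averaged 9.40. Hippocampus arrays Y and AH, high in thalamic and habenular markers, read 9.54 and 9.75. Over the 8 hippocampus arrays r with that list was 0.618. The part of thalamic or habenular tissue was not tested. By code, Ache was higher in hippocampus in all 8, by 0.26 to 1.64.

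Chrna7, Chrm1 and Chrm3 did not pass between the regions, which does not show equal levels. Chrna7 lay 0.25 ± 0.11 log2 higher in hippocampus (95% interval 0.02 to 0.48, limma, adjusted p = 0.0976). The value moved with single arrays: without old hippocampus array AI it was 0.33 (adjusted p = 0.0139), and without the 4 hippocampus arrays high in choroid plexus markers it was 0.42 (adjusted p = 0.0137). Those 4 arrays read 6.15 to 6.73 for Chrna7, and the other 4 read 6.75 to 6.92, with no overlap. Chrm1 differed by 0.12 ± 0.11 (95% interval -0.10 to 0.35) and Chrm3 by -0.13 ± 0.09 (-0.32 to 0.06).

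Chrm2 and Chrnb2 can be compared between regions only with no minimum. Chrm2 read 5.29 to 5.75 in hippocampus and 5.70 to 5.99 in frontal cortex, near the highest negative control of 5.51. Its difference was -0.33 ± 0.07 log2 (limma, adjusted p = 0.00373 over 16974 genes), and its other 3 probes gave -0.36, 0.01 and -0.13. Chrnb2, the partner of Chrna4 in the high-affinity receptor, differed by -0.02 ± 0.07 (adjusted p = 0.921). Its 16 arrays read 5.28 to 5.92, also near the highest negative control.

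**Figure D3:**
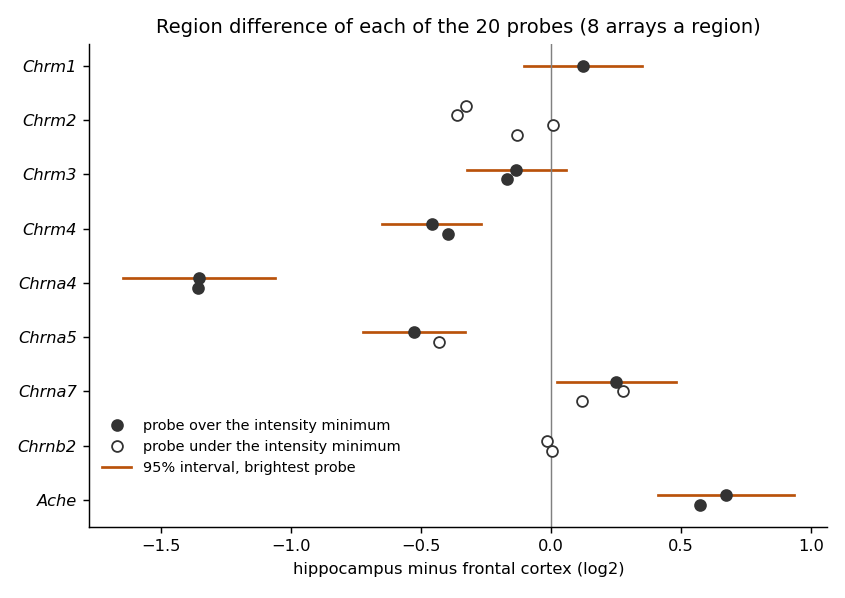
Hippocampus minus frontal cortex difference (log2, mean of 8 arrays minus mean of 8 arrays) of all 20 probes, by gene. Filled points are the 11 probes over the intensity minimum, open points the 9 under it, and orange lines the 95% interval of the brightest probe of each tested gene. Both probes of Chrna4 lie near -1.35, both of Chrm4 between -0.46 and -0.40, and both of Ache between 0.57 and 0.67.

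The further probes gave the same picture for region. Of the 11 probes over the minimum 7 passed, 2 higher in hippocampus and 5 lower, against 28.4% of all probes in either direction. The second probes gave -1.36 log2 for Chrna4, -0.40 for Chrm4 and 0.57 for Ache, each past the test. The second probe of Chrna5, under the minimum, gave -0.43. For Chrna7 the further probes, both under the minimum, gave 0.28 and 0.12.

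**Figure D4:**
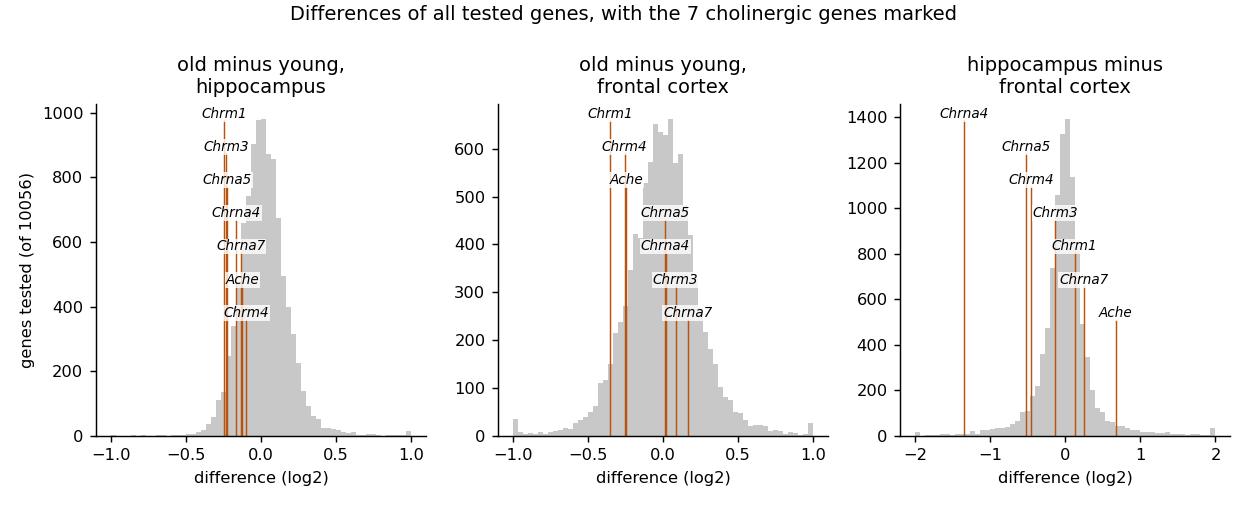
Histograms of the differences (log2) of all 10056 tested genes for age in hippocampus, age in frontal cortex and region, with the 7 cholinergic genes marked by vertical lines whose heights only separate the labels. Values beyond the axis are stacked in the end bins. The 7 hippocampal age differences lie left of 0, between -0.25 and -0.10, the frontal cortex ones lie between -0.36 and 0.17, and the region differences run from -1.35 (Chrna4) to 0.67 (Ache).

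The rest of the cholinergic system was read from lists of genes by role. Of 13 other receptor genes, from Chrm5 to the muscle subunits, Chrna1 and Chrnb4 alone passed the minimum, and neither passed any of the tests. Chrna1, the muscle-type alpha subunit, had the largest age difference among them, at 0.65 ± 0.16 log2 in frontal cortex (limma, adjusted p = 0.0641). Every old array lay above every young one, where 12.8% of all tested genes did not overlap. Chrna1 had entered the test only through old frontal cortex (mean 6.58), so its difference there is favoured by the minimum. Chrnb4 differed with age there by 0.34 ± 0.12 (adjusted p = 0.124).

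Of 9 genes of acetylcholine synthesis, transport and hydrolysis, 6 passed the minimum. Chat, the choline transporter Slc5a7 and the second esterase Bche did not. None of the 6 passed the age test in either region: the smallest p in hippocampus were those of the choline kinase Chkb (0.24 ± 0.09 log2, limma, adjusted p = 0.670) and the choline transporter-like Slc44a2 (0.26 ± 0.11, adjusted p = 0.675). In frontal cortex they were those of the choline kinase Chka (0.40 ± 0.14, adjusted p = 0.133) and Slc44a1 (0.38 ± 0.16, adjusted p = 0.175). Between regions 1 was lower in hippocampus, the vesicular transporter Slc18a3 (-0.41 ± 0.10, limma, adjusted p = 0.00546), and 1 was higher, Slc44a1 (0.33 ± 0.11, adjusted p = 0.0320). Across all tested genes 14.4% were lower and 14.4% higher. Slc18a3 had passed the minimum in frontal cortex alone (means 6.84 young and 6.57 old), so its call is favoured by the minimum. The median difference of the 6 was -0.05 for region.

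Of 10 genes for assembly, anchoring and modulation of the receptors and the esterase, 6 passed the minimum and none passed any test. In hippocampus Lynx1, a membrane-tethered modulator of nicotinic receptors, differed with age by -0.26 ± 0.12 log2 (limma, adjusted p = 0.729). In frontal cortex Prima1, which anchors Ache in neuronal membranes, differed by 0.41 ± 0.18 (adjusted p = 0.186). Between regions Lypd6b and Lynx1 each differed by -0.15, with adjusted p of 0.206 and 0.207.

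Some signal partners of the muscarinic receptors passed the test between the regions, and none passed it with age. Of the 10 tested genes of the Gq route, 5 were lower in hippocampus and 1 higher, with a median of -0.24 log2, where 14.4% of all tested genes were lower and 14.4% higher. Those of smallest p were the regulator of G protein signalling Rgs4 (-1.49 ± 0.16, limma, adjusted p = 2.19e-06), the calcium release channel Itpr1 (-0.54 ± 0.07), Rgs2 (-0.77 ± 0.11) and the kinase Prkcb (-0.42 ± 0.07). Plcb4, also among the 5 lower genes, had passed the minimum in frontal cortex alone (means 6.58 young and 6.64 old), so its call is favoured by the minimum. Of the 13 tested genes of the Gi and Go route, 5 were lower and 2 higher, with a median of -0.18, beside the same 14.4% each way. Gnaq, Gna11, Plcb1, Kcnq3, Gnai2, Gnai3, Adcy1, Kcnj3, Rgs7 and Rgs8 did not pass. Those of smallest p were the potassium channel Kcnj6, higher by 0.62 ± 0.07 (adjusted p = 4.50e-06), and the adenylyl cyclase Adcy5 (-0.95 ± 0.15), Rgs9 (-1.76 ± 0.35) and Adcy2 (-0.35 ± 0.09), all lower. Rgs9 is itself one of the striatal markers above, and the part of striatal tissue in its difference was not tested.

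With age, none of the tested genes of both routes passed in either region. The smallest p in frontal cortex were those of Gna11, a Gq-family alpha subunit (-0.35 ± 0.13 log2, limma, adjusted p = 0.146), and of Rgs4 (-0.46 ± 0.23, adjusted p = 0.242) on the Gq route, and of Adcy1 (0.41 ± 0.17, adjusted p = 0.171) and Rgs7 (-0.31 ± 0.15, adjusted p = 0.245) on the other. In hippocampus the smallest were those of Gna11 (-0.21 ± 0.13), Prkcb (-0.16 ± 0.10), Gnai2 (0.11 ± 0.08) and Gnao1 (-0.12 ± 0.10), with adjusted p from 0.790 to 0.835. Adcy1 had entered the test only through old frontal cortex (mean 6.71), so its frontal cortex difference is favoured by the minimum.

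**Figure D5:**
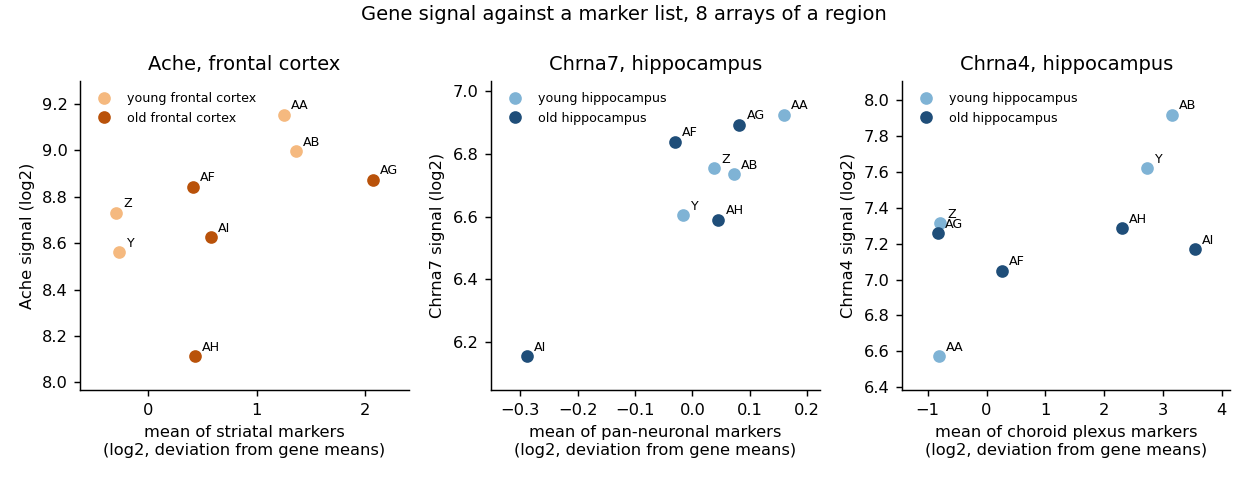
Signal (log2) of Ache in frontal cortex, and of Chrna7 and Chrna4 in hippocampus, against the mean of a marker list (log2, deviation from each gene's mean over the 16 arrays); points are the 8 arrays of the region, labelled by code, light for young and dark for old. Frontal cortex arrays AA, AB and AG are highest in both striatal markers and Ache, though for Ache AG (8.87) is only just above AF (8.84). Over these 8 arrays Ache had r = 0.504 with the striatal list and 0.869 with a list of interneuron markers, which is not drawn. In hippocampus its r with the interneuron list was -0.206. Hippocampus array AI is lowest in both pan-neuronal markers and Chrna7. The highest Chrna4 signals are on arrays AB and Y, which are high in choroid plexus markers. Arrays AH and AI are also high in them and read 7.29 and 7.17 for Chrna4, below array Z (7.31), which is not.

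For each tested gene, the 3 genes whose signal was most like it over the 16 arrays were named by Pearson's r, as a description. Since arrays of 1 region share their tissue, a high r mostly follows the regional difference where there is one. Chrna4 ran most closely with Gap43, the growth-associated protein of axons (r = 0.969), Gfra2 (0.967) and Plaat1 (0.966). Chrna5 ran with Nup210 (0.928), Rprm (0.901) and Cars1 (0.897), and Chrm4 with Sms (0.906), Crhbp (0.890) and Kcnf1 (0.887). Ache ran with Supt6h (0.939), Rem2 (0.912) and Caly (0.906).

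The genes without a regional call had partners at a like r. They were Psmd8 (0.916), Tor2a (0.916) and Thy1 (0.887) for Chrm1, Aqp11 (0.858), C1h19orf47 (0.849) and Zfp90 (0.812) for Chrm3, and Kcnab2 (0.839), Wasl (0.826) and Nptx1 (0.813) for Chrna7. Within the set, Chrna4 and Chrna5 correlated at r = 0.854 over the 16 arrays and at 0.392 once the group means were taken out. Chrna4 and Ache correlated at -0.765 and at -0.159 without the group means. Chrm3 and Chrna7 went the other way, from 0.320 to 0.563, and array AI held the lowest hippocampus value of both.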

How the data were processed

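The values are log2 signals that the authors deposited, 1 column per sample. Scans were quantified with Agilent Feature Extraction per the submitters' processing notes. How background was corrected and arrays normalized is not given in the sources used here. All columns share their quartiles (median 6.77, upper quartile 9.17, range 4.94 to 17.8), as after quantile normalization. A raw signal table was used for spot names only, since its 16 signal columns match no sample by name. Per the labels' protocols, tissue was frozen after dissection and total RNA was labelled with a one-colour low-input kit.

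Each array was shifted to a common 75th percentile over probes with a listed gene (9.42 to 9.44 before). A gene is its probe of highest mean signal, kept when 1 group mean or more lay above the 40th percentile of probe means (6.49). Symbols follow a RefSeq table of GRCr8 by accession. limma 3.58.1 in R 4.3.3 fitted the 4 group means to 16 arrays (12 residual and 4.07 prior degrees of freedom, median residual SD 0.165). Moderated p-values are two-sided, with Benjamini-Hochberg adjustment over 10056 genes (or 28735 probes), and are called under 0.05. Precision is limited by the number of arrays. The script was tested on simulated data.

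All 9 genes are named with every probe. Of each other cholinergic list, the called genes up to 4 by smallest p are named, otherwise the 2 of smallest p, and of each tested member the 3 most correlated genes. The genes, lists and tests were chosen with earlier results of these data known. Alternatives were other scalings, minima, probe summaries, variance models, array weights, 1 region alone, a block by title code and each array left out; leaving out arrays whose choroid plexus or striatal mean lay over 1 log2 above was chosen after seeing the data.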

Additional observations from a re-analysis of the deposited data

How the results depend on the processing

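The 28 member differences were recomputed under 792 alternative values, of which 759 kept direction and side of the threshold, 0 lost a call, 0 reversed a called value, 4 gained a call and 29 changed the sign of a value that was not called. The 4 gained calls are all Chrna7 between regions: with array weights (0.33, adjusted p = 0.0195), without old hippocampus array AI (0.33, adjusted p = 0.0139), without the arrays high in choroid plexus markers (0.42, adjusted p = 0.0137) and without those high in either marker list (0.46, adjusted p = 0.00996). No member was called for age or for the interaction under any alternative or with any array left out. For region, 3 to 5 members were called under the other settings and 4 to 5 with each array left out; the 3 are Ache, Chrm4 and Chrna4, with a stricter minimum and with the mean of all probes, where Chrna5 was not tested. The number of all genes called moved more. For age in hippocampus it was 4, and 1 to 8 under the other settings with all arrays, 1 to 7 with 1 array left out and 0 to 4 without the arrays high in a marker list. For age in frontal cortex it was 97, but 47 with no minimum, 45 with a stricter one, 29 with frontal cortex alone, 4 to 739 with 1 array left out and 2 without the arrays high in striatal markers. Arrays of the same title code deviated together for some codes and not for others: over 10056 genes r was 0.282 for AF, 0.273 for AI and 0.125 for AA, each above its r with every other code, and -0.171 to 0.034 for the other 5, so the codes were not taken to pair the samples. With the code as a replicate block, random (correlation 0.0506) or fixed, the same 4 members were called between regions, and 0 for age under the random block and 0 for the interaction under both. With 4 arrays a group the 95% intervals of the age differences reach 0.27 to 0.42 log2 to either side, and the signals of Chrm2 and Chrnb2 lie near the highest negative control (5.51).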
